A study of Mus musculus with 12 samples.

Results

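The genotype by day interaction asks whether a gene's change between day 0 and day 7 of a skin wounding experiment differed between mice with and without Cthrc1. For each gene it is the log2 change from day 0 to day 7 in the knockout minus the same change in the wild type (WT). Genes entered by 1 rule, a mean of at least 1 FPKM (fragments scaled to transcript length and library size, computed by the authors) over all 12 samples. The rule kept 14313 of the 55401 genes in the deposited table. Lce3b, at a mean of 1.00191 FPKM, was the protein-coding gene just inside and Grb14, at 0.99971 FPKM, the one just outside. Of the genes kept, 12515 had a mean of at least 1 FPKM in all 4 groups, and 126 reached it in 1 group only.

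The tissue was dermis, the connective tissue layer of skin, from C57BL/6 mice aged 6 weeks. The groups were WT on day 0, Cthrc1-/- on day 0, WT on day 7 and Cthrc1-/- on day 7, with 3 biological replicates in each. The design text speaks of paired wounds of equal size, and the labels give no wound size, sex or treatment, and do not describe the Cthrc1 allele. Total counts ran from 48329668 to 76938132 per library.

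Skin repair moves through inflammation, then growth of granulation tissue, in which fibroblasts, new vessels and contractile myofibroblasts lay down collagen, and then remodelling. Cthrc1 encodes a secreted glycoprotein made by activated fibroblasts and injured vessel walls. Skin also holds hair follicles, which alternate between growth, when matrix cells divide and build the inner root sheath and the keratinized shaft, and rest, when those genes are nearly silent. Bulk dermis therefore reports cell composition and gene activity together, and fewer cells of a type cannot be told apart from less RNA per cell.

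The libraries were checked against their labels first. Cthrc1 was at 27.0, 21.8 and 21.1 FPKM in WT on day 0 and at 106, 95.5 and 74.0 FPKM in WT on day 7, and no Cthrc1-/- library exceeded 0.151 FPKM. Dermal fibroblast genes such as Col1a1 (136 to 3120 FPKM) were present in every library. So were the epidermal keratins Krt5 (907 to 3830 FPKM) and Krt14 (1160 to 3460 FPKM) and skeletal muscle actin Acta1 (27.9 to 457 FPKM). Some libraries stood apart. The level of a gene list is given throughout as the mean of log2(FPKM + 1) over its tested members. Cthrc1-/- day 0 replicate 3 had a dermal fibroblast level of 3.61, against 4.75 and 4.35 in replicates 1 and 2 and 5.04 to 5.18 in WT on day 0. WT day 7 replicate 1 had an inflammatory and neutrophil level of 6.53, against 2.73 and 1.93 in its fellow replicates. Values without these libraries are given where they matter, and the fits without each library in turn are plotted for every list.

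Across genes, few interactions passed correction. edgeR's quasi-likelihood test called 2 of 14313 genes at an adjusted p under 0.05, which is 0.014% of genes tested. Apbb2 was higher (0.00699% of genes) and Pds5a was lower (0.00699%). At an unadjusted p under 0.05 the interaction was positive in 1034 genes (7.22%) and negative in 1130 (7.89%), 2164 in all (15.1%). DESeq2 on the same genes called 681, of which 209 were higher and 472 lower. limma called 4 genes on log2(FPKM + 1), namely Apbb2, Mup10, Slc26a7 and Cthrc1, and Apbb2 alone on log2(FPKM + 0.1). Cthrc1 is the gene knocked out, so its value on that first scale mirrors its rise in WT. By edgeR its interaction was -2.17 (SE 1.43, edgeR adjusted p = 0.472). Without Cthrc1-/- day 0 replicate 1, edgeR called 242 genes, 78 higher and 164 lower. Without any other single library it called between 0 and 5. Because leaving out 1 library moves the count this far, the classes below are described by their values at unadjusted thresholds and set against the same shares over all genes.

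The knockout's change could be weaker than in WT, stronger, or opposite in sign. Among the 2164 genes at an unadjusted p under 0.05, the change was opposite in 1403 (64.8%), weaker in 619 (28.6%) and stronger in 142 (6.56%). Over all 14313 genes the shares were 36.3% opposite, 39.0% weaker and 24.7% stronger. Selecting genes for a large interaction favours opposite signs by construction, so these shares are a description. The group of 752 genes that went up in WT and down in the knockout had a median log2 change of 0.68 in WT and -0.32 in the knockout. Another 651 went down in WT (median -0.53) and up in the knockout (median 0.41). The 341 genes with a weaker increase had medians of 1.48 in WT and 0.27 in the knockout, and the 278 with a weaker decrease had -1.32 and -0.22. The 105 genes with a stronger increase had medians of 0.25 and 1.65, and 37 genes had a stronger decrease.

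The interaction equals the genotype difference on day 7 minus that on day 0, so the day at which the genotypes lay apart can be read off. In 1935 of the 2164 genes (89.4%) the absolute genotype difference was larger on day 0 than on day 7, against 69.6% of all genes tested. The share depends on how genes are taken. With a 2-fold interaction in place of p it was 1858 of 2407 (77.2%), nearer that of all genes. The 752 genes up in WT only had a median knockout minus WT difference of 0.83 on day 0 and -0.12 on day 7. The 105 genes with a stronger increase had -0.99 on day 0 and 0.24 on day 7. By edgeR the knockout differed from WT in 827 genes (5.78%) on day 0 and in 3 (0.021%) on day 7. Those 3, named because they are few, were Cthrc1 itself and the unnamed loci Gm20305 and Gm47305.

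Apbb2 (ENSMUSG00000029207, chromosome 5, 66298703 to 66618784, minus strand, protein-coding, GRCm38) had opposite changes in the genotypes. It encodes an adaptor protein of the Fe65 family that binds the amyloid precursor protein. Its values were 2.43, 2.47 and 2.48 FPKM in WT on day 0 and 0.42, 0.557 and 0.25 FPKM in Cthrc1-/- on day 0. On day 7 they were 0.845, 0.687 and 0.591 FPKM in WT and 2.43, 3.00 and 2.57 FPKM in Cthrc1-/-. The knockout was below WT on day 0 and above it on day 7, with no overlap between the genotypes on either day. Apbb2 fell in WT by 1.95 on the log2 scale (edgeR adjusted p = 0.00631) and rose in Cthrc1-/- by 2.52 (edgeR adjusted p = 0.0136). The interaction was 4.48 (SE 0.434, edgeR adjusted p = 0.0150), and DESeq2 gave an adjusted p of 5.51e-21. Leaving out 1 library ended edgeR's call in 5 of 12 fits, with adjusted p of 0.0627 and 0.0708 without Cthrc1-/- day 7 replicates 1 and 3, 0.0741 and 0.0766 without WT day 0 replicates 2 and 3, and 0.0740 without WT day 7 replicate 3. The interaction itself stayed between 4.19 and 4.77 in the fits without 1 library.

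Pds5a (ENSMUSG00000029202, chromosome 5, 65605721 to 65698273, minus strand, protein-coding) encodes a regulator of cohesin, the ring complex that holds sister chromatids together. It had 2.04, 1.93 and 1.88 FPKM in WT on day 0, and 4.76, 4.81 and 6.07 FPKM in Cthrc1-/- on day 0. By day 7 WT had 1.70, 1.97 and 2.51 FPKM and Cthrc1-/- had 2.12, 1.84 and 1.81 FPKM. The Cthrc1-/- day 0 libraries were the high ones, and the other 3 groups overlapped. Its log2 change was -0.12 in WT (edgeR adjusted p = 0.533), and it fell in Cthrc1-/- by 1.58 (edgeR adjusted p = 0.00102). The interaction was -1.46 (SE 0.171, edgeR adjusted p = 0.0407). The call was lost in 8 of the 12 fits without 1 library, with edgeR adjusted p up to 0.177. These were the fits without any 1 of the WT day 0 or Cthrc1-/- day 7 replicates, without Cthrc1-/- day 0 replicate 2 and without WT day 7 replicate 3. It was also lost with total-count scaling (0.143), without an FPKM filter (0.170), with replicate number as a block across all groups (0.159) or within genotype (0.185), and with limma on log2(FPKM + 1) (0.0977) and log2(FPKM + 0.1) (0.126). Its interaction stayed between -1.60 and -1.36 in the fits without 1 library.

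Both called genes lie on chromosome 5, 600430 bases apart, with 24 annotated genes between them. Only 2 of those were tested, N4bp2 and Rbm47, with interactions of 0.16 and 0.449 and unadjusted p of 0.583 and 0.527. These neighbours were looked at after the positions of the called genes were seen. Annotated genes that overlap Apbb2 or Pds5a all had a mean under the FPKM threshold, the highest at 0.352 FPKM.

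**Figure D1:**
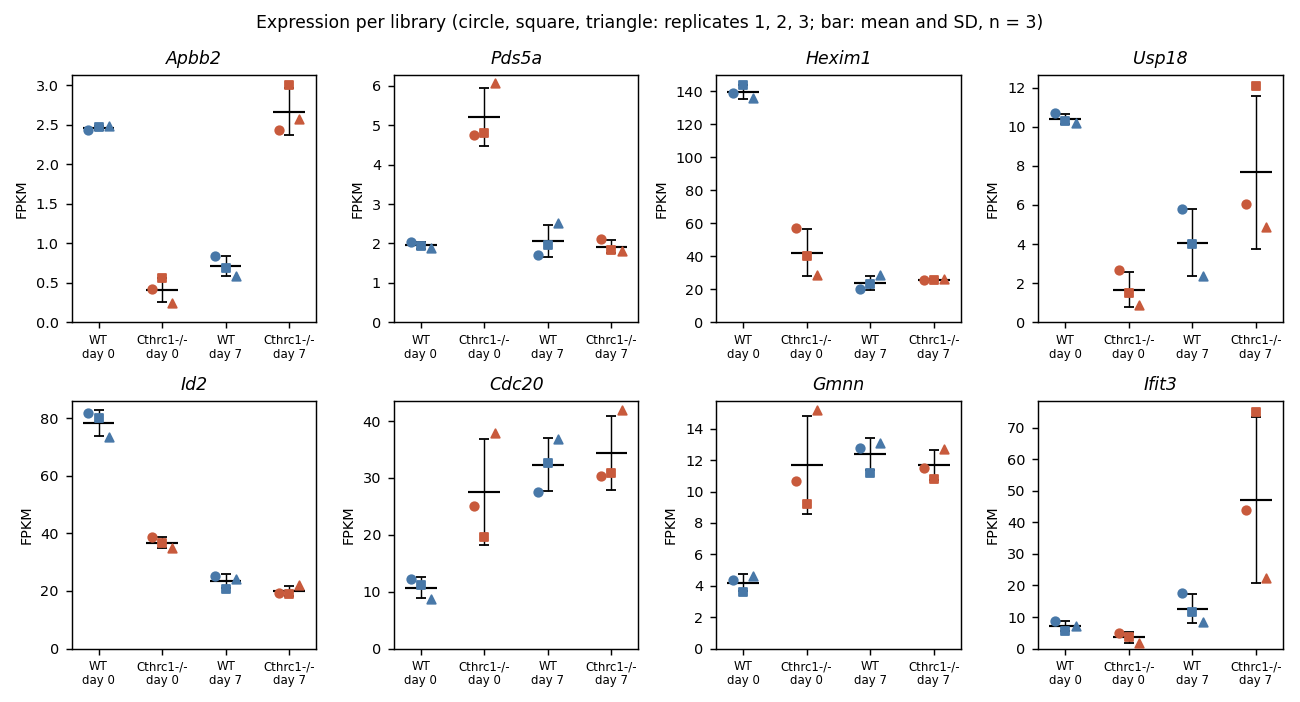
Expression of 8 genes in each library, in FPKM on a linear axis from 0, by genotype and day. Circles, squares and triangles are replicates 1, 2 and 3, and bars are the mean and SD of 3 libraries. Apbb2 is low in Cthrc1-/- on day 0 and in WT on day 7, and Pds5a is high only in Cthrc1-/- on day 0.

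The next genes by p did not pass correction and are given as values. Among protein-coding genes at 5 FPKM or more, the smallest p in the positive direction belonged to Hexim1, Arl4d, Syf2, Usp18, Tsc2, Thsd1, Id2 and Tubb4b, with interactions from 0.76 to 3.52 and edgeR adjusted p from 0.137 to 0.171. Hexim1, which encodes an inhibitor of the transcription elongation factor P-TEFb, was at 139, 144 and 136 FPKM in WT on day 0 and at 57.1, 40.1 and 28.8 FPKM in Cthrc1-/- on day 0. On day 7 all 6 libraries lay between 20 and 28.4 FPKM. Hexim1 fell in WT by 2.74 on the log2 scale (edgeR adjusted p = 0.00167), its log2 change in Cthrc1-/- was -0.87 (adjusted p = 0.0876), and the interaction was 1.87 (SE 0.327, edgeR adjusted p = 0.137). Thsd1 and Tubb4b had WT log2 changes of -2.14 and -1.44 and knockout changes of -0.87 and -0.53.

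In the negative direction, Gmnn was a gene outside the hair and cornified groups described below. Gmnn encodes geminin, which blocks relicensing of replication origins. It had 3.58 to 4.59 FPKM in WT on day 0, 9.18 to 15.2 in Cthrc1-/- on day 0 and 10.8 to 13.1 FPKM in the 6 day 7 libraries, with an interaction of -1.52 (SE 0.266, edgeR adjusted p = 0.137).

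The largest positive values among abundant protein-coding genes mostly belonged to genes that were high in WT on day 0 only. Angptl7, a secreted angiopoietin-like protein, was at 17.3, 27 and 22.6 FPKM in WT on day 0 and at 5.22, 2.73 and 0.674 FPKM in Cthrc1-/- on day 0. All 6 day 7 libraries had between 0.465 and 1.28 FPKM. Angptl7 fell in WT by 4.79 (edgeR adjusted p = 0.00592), its change in Cthrc1-/- was -1.80 (adjusted p = 0.166), and the interaction was 2.99 (SE 0.879, edgeR adjusted p = 0.212). Cyp2f2, a cytochrome P450, had 25.8 to 35.8 FPKM in WT on day 0, 2.24 to 8.52 FPKM in Cthrc1-/- on day 0 and 2.2 to 6.58 FPKM on day 7, with an interaction of 2.85 (SE 0.746, edgeR adjusted p = 0.194). Il20ra, a receptor chain for interleukin 20, had 16.4 to 17.5 FPKM in WT on day 0, 0.363 to 5.46 FPKM in Cthrc1-/- on day 0 and an interaction of 2.73 (SE 1.13). Mup22, a major urinary protein with near-identical copies and so of uncertain count, had 30.3 to 153 FPKM in WT on day 0 and at most 2.81 FPKM in any other library. Plac9a was at 0 in all 3 Cthrc1-/- day 0 libraries and in WT day 7 replicate 1, and between 2.9 and 14.2 FPKM in the other 8, so no fold is given. Plac9a has a paralog, Plac9b, and how reads were divided between them was not tested.

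To describe classes of genes, 40 lists covering 983 distinct tested genes were set beside all genes tested, whose median interaction was 0.02. No list member was called by edgeR, nor by limma on either FPKM scale. Counts at an unadjusted p under 0.05 and DESeq2 calls (4.76% of all genes) are given with the lists described at length. Genes named beyond those picked by the naming rule were chosen after their values were seen.

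**Figure D2:**
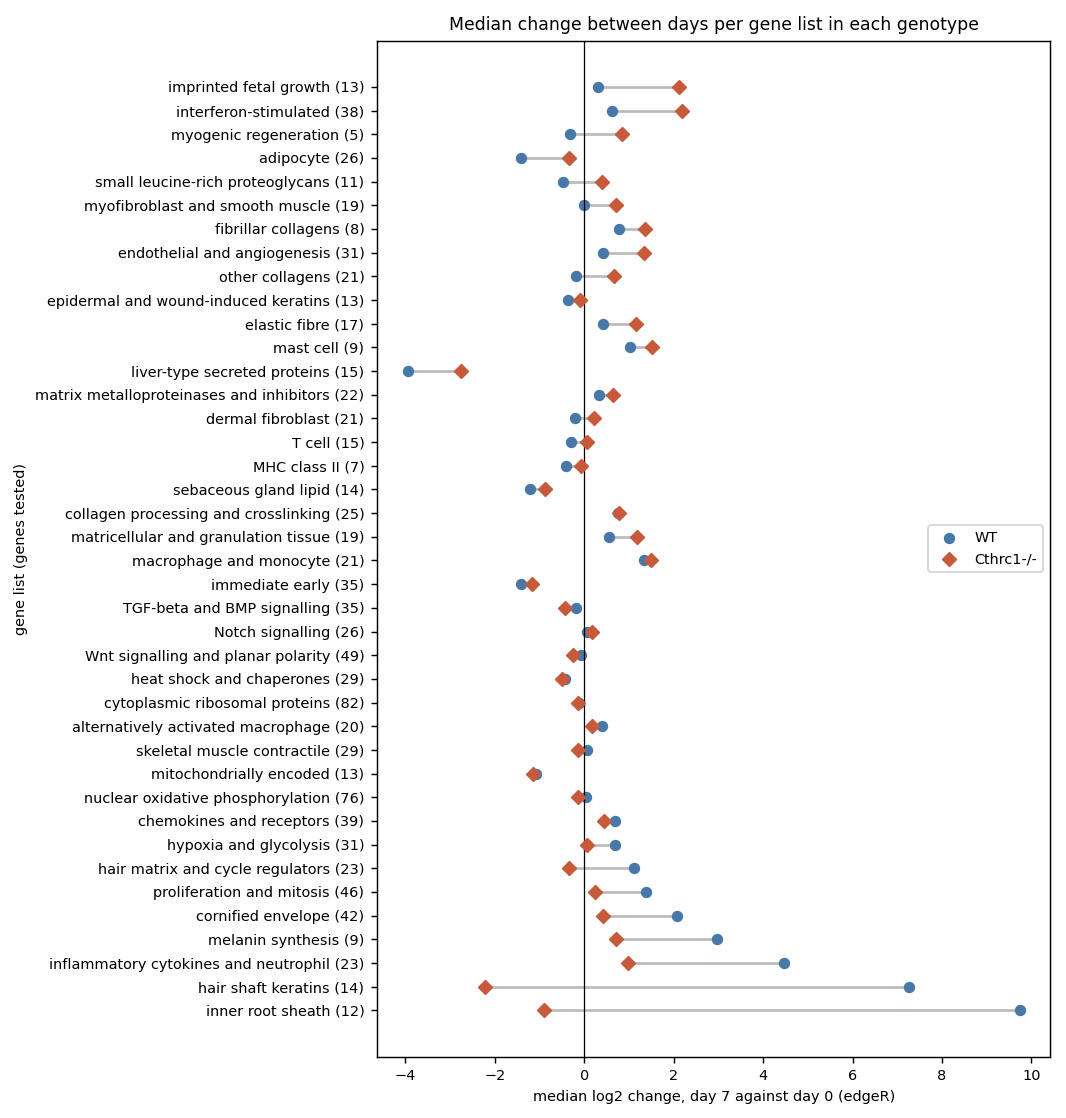
Median log2 change from day 0 to day 7 in each of 40 gene lists, with WT as circles and Cthrc1-/- as diamonds, ordered by the median interaction. Imprinted and interferon-stimulated genes have larger medians in Cthrc1-/-, and the hair, melanin and cornified lists have larger medians in WT.

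Inner root sheath and hair shaft genes had a positive median change in WT and a negative one in Cthrc1-/-, where no member's change passed correction. The inner root sheath, the sleeve that moulds the growing shaft, was represented by 12 tested genes with a median log2 change of 9.74 in WT and -0.89 in Cthrc1-/-. The interaction was negative in 12 of 12 and had an unadjusted p under 0.05 in 10, and its median was -10.61. With 1 member at 0 counts throughout WT day 0 set to a floor of 3 counts per library, the median was -10.36. DESeq2 called 10 of the 12. Between days, 10 of the 12 changed in WT at an edgeR adjusted p under 0.05 (13.1% of all genes). In Cthrc1-/- 0 of the 12 did (1.46% of all genes). Krt71, a type II keratin of this sheath, was at 0.307, 1.06 and 0.821 FPKM in WT on day 0 and at 66.1, 1530 and 3950 FPKM in Cthrc1-/- on day 0. On day 7 the values were 595, 1330 and 1230 FPKM in WT and 1290, 169 and 1790 FPKM in Cthrc1-/-. Only the WT day 0 libraries were low, and the other 3 groups overlapped across a wide range. Krt71 rose in WT by 10.27 (edgeR adjusted p = 0.00631), its change in Cthrc1-/- was -0.87 (adjusted p = 0.722), and the interaction was -11.13 (SE 1.87, edgeR adjusted p = 0.133). Krt25, Krt27, Krt28 and Krt73 of the same sheath had interactions between -11.53 and -9.26.

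The sheath level shows how unequal the knockout libraries were. It was 3.49, 7.11 and 8.13 in Cthrc1-/- on day 0 and 6.82, 4.19 and 7.04 in Cthrc1-/- on day 7, against 0.61 to 0.85 in WT on day 0 and 5.16 to 7.06 in WT on day 7. Leaving out Cthrc1-/- day 0 replicate 1, the lowest of its group, brought 9 of the 12 sheath genes past edgeR's adjusted threshold, where 1.69% of all genes passed it. The median interaction lay between -11.24 and -9.69 in the fits without 1 library.

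Hair shaft keratins followed the same course. Of 14 tested, all had a negative interaction, 13 had an unadjusted p under 0.05 and 13 were called by DESeq2. At an edgeR adjusted p under 0.05, 9 of the 14 changed between days in WT (13.1% of all genes). In Cthrc1-/- 0 of the 14 keratins did (1.46% of all genes). Their median log2 change was 7.26 in WT and -2.22 in Cthrc1-/-, and the median interaction was -9.20 (-9.07 with 2 members at 0 counts in WT day 0 set to the floor). Krt35, a type I hair keratin, was at 0.162 to 0.335 FPKM in WT on day 0 and at 11.2, 161 and 546 FPKM in Cthrc1-/- on day 0. By day 7 WT had 51.8, 123 and 139 FPKM and Cthrc1-/- had 108, 16.8 and 180 FPKM. The keratin-associated proteins Krtap8-1 and Krtap7-1, which crosslink hair keratin filaments, had interactions of -11.86 (SE 3.27) and -11.46 (SE 3.09).

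Genes that govern the follicle had smaller values. Of 23 hair matrix and cycle regulators, 9 had a negative and 1 a positive interaction at an unadjusted p under 0.05, 8 were called by DESeq2, and the median was -0.70 (-1.13 without WT day 7 replicate 1 and -0.41 without WT day 7 replicate 3). Dlx3, a homeobox factor of the hair matrix, was at 3.41 to 4.12 FPKM in WT on day 0, at 11.4, 79.4 and 211 FPKM in Cthrc1-/- on day 0 and at 21.0 to 105 FPKM in the day 7 libraries. Its interaction was -4.76 (SE 1.2, edgeR adjusted p = 0.193). Gata3, a lineage factor of the inner root sheath, had an interaction of -0.09 (SE 0.537, adjusted p = 0.948), and Krt75, a companion layer keratin, of -0.36 (SE 0.621, adjusted p = 0.799).

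Pigment genes, active in melanocytes of the growing follicle, had a smaller median change in the knockout. The 9 tested melanin synthesis genes had medians of 2.97 in WT and 0.72 in Cthrc1-/-, a median interaction of -2.47, 7 at an unadjusted p under 0.05 (all lower) and 4 DESeq2 calls. Dct, dopachrome tautomerase, was at 3.53, 2.77 and 3.88 FPKM in WT on day 0 and 10.7, 9.27 and 25.6 FPKM in Cthrc1-/- on day 0. The day 7 libraries had 15.3, 35.5 and 38.1 FPKM in WT and 24.3, 17.2 and 38.9 FPKM in Cthrc1-/-. Dct rose in WT by 2.90 (edgeR adjusted p = 0.00631), and its interaction was -2.21 (SE 0.593, edgeR adjusted p = 0.194). Without Cthrc1-/- day 0 replicate 3 the list's median was -1.66.

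Cornified envelope genes, which build the dead outer cell layer of epidermis, had a weaker change, in most cases an increase, in 34 of 42 tested members. Their median log2 change was 2.08 for WT against 0.42 for Cthrc1-/-. The median interaction was -1.27 (-1.05 with 6 members at 0 counts in WT day 0 set to the floor), with 11 lower and 0 higher at an unadjusted p under 0.05 and 7 DESeq2 calls. The median knockout minus WT difference was 2.37 on day 0 and 1.09 on day 7. On day 7, 0 of the 42 differed at an edgeR adjusted p under 0.05, where only 0.021% of all genes did. The median interaction lay between -1.70 and -0.88 in the fits without 1 library and was -0.42 on log2(FPKM + 1), a scale on which low genes count for less. Sprr1a, a small proline-rich crosslinked protein, was at 102, 94.5 and 88.8 FPKM in WT on day 0 and at 531, 1170 and 966 FPKM in Cthrc1-/- on day 0. By day 7 WT had 221, 532 and 466 FPKM and Cthrc1-/- had 581, 301 and 603 FPKM. Sprr1a rose in WT by 1.88 (edgeR adjusted p = 0.0122), and its change in Cthrc1-/- was opposite, at -0.99 (edgeR adjusted p = 0.173). The interaction was -2.88 (SE 0.506, edgeR adjusted p = 0.137). The Sprr2a copies are near-identical, so their separate counts are uncertain.

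Of the cell division genes, 39 of 46 had a weaker change in the knockout and 7 an opposite one. All 46 tested proliferation and mitosis genes had a negative interaction, 37 had an unadjusted p under 0.05 and 26 were called by DESeq2. In WT 39 of the 46 changed at an adjusted p under 0.05, where 13.1% of all genes did, and in Cthrc1-/- 0 of 46 did, where 1.46% of all genes did. The median log2 change was 1.37 in WT and 0.25 in Cthrc1-/-, and the median interaction was -1.11. Cdc20, an activator of the anaphase-promoting complex, was at 12.3, 11.1 and 8.64 FPKM in WT on day 0 and at 25, 19.7 and 37.9 FPKM in Cthrc1-/- on day 0. On day 7 the values were 27.5, 32.6 and 36.8 FPKM in WT and 30.4, 30.9 and 41.9 FPKM in Cthrc1-/-. WT on day 0 was the low group, below every other library. Cdc20 rose in WT by 1.40 (edgeR adjusted p = 0.00631), its change in Cthrc1-/- was 0.18 (adjusted p = 0.699), and the interaction was -1.22 (SE 0.300, edgeR adjusted p = 0.193). Ccnb2, which encodes cyclin B2, had an interaction of -1.23 (SE 0.303). Mybl2, a transcription factor of dividing cells, had one of -2.24 (SE 0.361, edgeR adjusted p = 0.133). Pcna, the replication clamp, had an interaction of -0.20 (SE 0.162), with 46.4 to 61.9 FPKM in all 12 libraries.

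The list level was 2.01 to 2.26 in WT on day 0, 2.81, 2.62 and 3.34 in Cthrc1-/- on day 0, 3.10 to 3.49 in WT on day 7 and 3.20 to 3.41 in Cthrc1-/- on day 7. The hair matrix is itself a dividing tissue. In Cthrc1-/- day 0 replicates 1, 2 and 3 the sheath levels were 3.49, 7.11 and 8.13. Replicate 1 thus had a higher division level than replicate 2 and a lower sheath level, and replicate 3 was highest in both. The part of the hair matrix in the result was not tested. The division list's median interaction lay between -1.27 and -0.86 in the fits without 1 library.

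Promoters of this list, which matched the RefSeq promoter table (GRCm38.p6) in 38 of 46 members, were searched over the 250 bases before the gene start on both strands. They are shown because genes of late division are known to share a cell cycle homology element, TTTGAA, and the CCAAT box. The 4 genes shown are not the 4 most abundant with a match. Ccnb2, second to Cdc20 in abundance, had a match starting 167 bases before the gene start and is left out. Capitals mark 1 TTTGAA match per gene (any further match is left in lower case), which reads TTCAAA where it lies on the other strand. The 4 stretches are on the gene's strand, 5′ to 3′, at chr4:118437344-118437391 (minus) for Cdc20, chr2:164769870-164769928 (plus) for Ube2c, chr7:135716442-135716507 (minus) for Mki67 and chr11:99024190-99024242 (minus) for Top2a.
Cdc20: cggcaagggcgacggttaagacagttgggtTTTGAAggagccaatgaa
Ube2c: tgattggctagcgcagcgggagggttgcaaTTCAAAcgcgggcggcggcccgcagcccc
Mki67: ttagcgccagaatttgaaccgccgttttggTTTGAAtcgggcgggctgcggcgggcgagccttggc
Top2a: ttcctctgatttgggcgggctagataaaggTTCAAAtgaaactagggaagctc
TTTGAA was found in 12 of the 38 promoters (31.6%), against 18.3% of all 27025 promoters in the table and 12.9% of those of tested genes. CCAAT was found in 30 of 38 (78.9%), against 37.5% and 39.9%. The E2F-type words TTTGGCGC and TTTCCCGC were found in 2 (5.26%) and 1 (2.63%), against 0.485% and 1.03% of all promoters and 0.865% and 1.87% of those of tested genes. TTTGAA was also found in 3 of 11 inner root sheath promoters (27.3%). Ube2c, Mki67 and Top2a, all carrying the match shown, had interactions of -1.29, -1.28 and -1.07, where the median of the whole list was -1.11. Division genes with and without a match were not compared.

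Imprinted genes of fetal growth had the largest positive median. These genes are expressed from 1 parental copy, act on growth before birth and are mostly silenced in adult tissue. Of 13 tested, all had a positive interaction, 10 had an unadjusted p under 0.05 and 4 were called by DESeq2. The median log2 change was 0.31 in WT and 2.11 in Cthrc1-/-, and the median interaction was 1.93. H19, a noncoding RNA of the Igf2 locus, was at 9.62, 3.13 and 16.9 FPKM in WT on day 0 and at 3.73, 2.52 and 2.46 FPKM in Cthrc1-/- on day 0. By day 7 WT had 14.4, 81.8 and 42.6 FPKM and Cthrc1-/- had 93.3, 110 and 75.2 FPKM. The day 0 knockout values were at the low end of WT, and the day 7 knockout values overlapped with the highest WT library. H19 rose in Cthrc1-/- by 4.83 (edgeR adjusted p = 0.0216), its change in WT was 2.00 (adjusted p = 0.0638), and the interaction was 2.83 (SE 0.890, edgeR adjusted p = 0.230).

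Cdkn1c, a cyclin-dependent kinase inhibitor, was at 7.81 to 9.20 FPKM in WT on day 0 and at 4.44 to 5.55 FPKM in Cthrc1-/- on day 0. The day 7 libraries had 4.05, 18.1 and 11.8 FPKM in WT and 26.5, 26.9 and 20.8 FPKM in Cthrc1-/-, with the knockout lower on day 0 and higher on day 7 without overlap. It rose in Cthrc1-/- by 2.20 (edgeR adjusted p = 0.0338), and the interaction was 2.00 (SE 0.528, edgeR adjusted p = 0.194). Mest, an imprinted gene of the hydrolase fold family, rose in both genotypes, by 2.87 in WT and 5.27 in Cthrc1-/- (edgeR adjusted p = 0.0172 and 0.0190), with an interaction of 2.40 (SE 0.828, edgeR adjusted p = 0.243). Dlk1, Igf2 and Meg3 had interactions of 4.48, 2.94 and 2.46. Igf2r, which encodes the receptor that clears Igf2, had one of 0.09 (SE 0.194). The median interaction of the list lay between 1.60 and 2.09 in the fits without 1 library and was 1.61 without WT day 7 replicate 1 and Cthrc1-/- day 0 replicate 3 together.

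Interferon-stimulated genes had a stronger or opposite change. Interferons act through a transcription factor complex that includes Stat2 and Irf9 and binds the interferon-stimulated response element (ISRE) before antiviral genes. Its core, written here as GAAA, any 2 bases and GAAA again, was found on either strand within 250 bases before the start in 14 of the 26 interferon-stimulated genes that the RefSeq table holds (53.8%), against 3.46% of all promoters and 3.18% of those of tested genes. In the stretches below, capitals mark the match nearest the gene start, and any further match is not marked. A match on the other strand reads TTTC on both sides of the free bases. The 4 most abundant genes with a match are shown, on the gene's strand, 5′ to 3′. They lie at chr8:71537557-71537626 (minus) for Bst2, chr4:156200845-156200914 (minus) for Isg15, chr19:34583377-34583446 (plus) for Ifit3 and chr3:142620574-142620643 (plus) for Gbp2.
Bst2: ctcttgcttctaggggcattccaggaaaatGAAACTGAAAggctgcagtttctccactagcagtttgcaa
Isg15: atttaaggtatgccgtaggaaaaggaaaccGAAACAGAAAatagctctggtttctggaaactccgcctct
Ifit3: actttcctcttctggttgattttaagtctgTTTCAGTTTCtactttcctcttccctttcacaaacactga
Gbp2: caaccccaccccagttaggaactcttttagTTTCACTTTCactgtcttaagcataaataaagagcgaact
Members with the core had a median interaction of 1.45 (0.40 to 2.92, n = 14) and those without it 1.23 (0.35 to 2.68, n = 12), so these ranges overlapped almost fully.

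All 38 tested interferon-stimulated genes had a positive interaction, 12 had an unadjusted p under 0.05 and 4 were called by DESeq2. The knockout's change was stronger in 27 and opposite in 11. The median log2 change was 0.61 in WT and 2.18 in Cthrc1-/-, the median interaction was 1.42, and the median genotype difference went from -0.83 on day 0 to 0.57 on day 7. Ifit3, an antiviral tetratricopeptide protein, was at 8.64, 5.67 and 7.12 FPKM in WT on day 0 and at 5.01, 3.75 and 1.76 FPKM in Cthrc1-/- on day 0. On day 7 the values were 17.6, 11.7 and 8.57 FPKM in WT and 44.0, 74.9 and 22.3 FPKM in Cthrc1-/-. The knockout libraries were lower than WT on day 0 and higher on day 7, without overlap on either day. Ifit3 rose in Cthrc1-/- by 3.57 (edgeR adjusted p = 0.0224), its change in WT was 0.67 (adjusted p = 0.397), and the interaction was 2.90 (SE 0.737, edgeR adjusted p = 0.193). Ifit3b is a near copy of Ifit3, so reads could be split between them.

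Usp18, which removes Isg15 from proteins and restrains interferon receptor signalling, was at 10.7, 10.3 and 10.2 FPKM in WT on day 0 and at 2.66, 1.47 and 0.874 FPKM in Cthrc1-/- on day 0. By day 7 WT had 5.81, 4.01 and 2.37 FPKM and Cthrc1-/- had 6.03, 12.1 and 4.85 FPKM. WT was the high group on day 0, and the genotypes overlapped on day 7. Its interaction was 3.52 (SE 0.728, edgeR adjusted p = 0.149). Bst2, which tethers budding virus to the cell surface, had an interaction of 1.46 (SE 0.687), and Stat2 one of 1.89 (SE 0.527, edgeR adjusted p = 0.203). Ifitm3, the most abundant member, had one of 0.35 (SE 0.795), and its WT day 7 values of 1110, 329 and 270 FPKM show replicate 1 apart. The list's median interaction was 2.12 without WT day 7 replicate 1 and 1.0 without Cthrc1-/- day 7 replicate 2, which had the highest level of the list (4.19, against 3.47 and 3.06 in its fellow replicates).

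**Figure D3:**
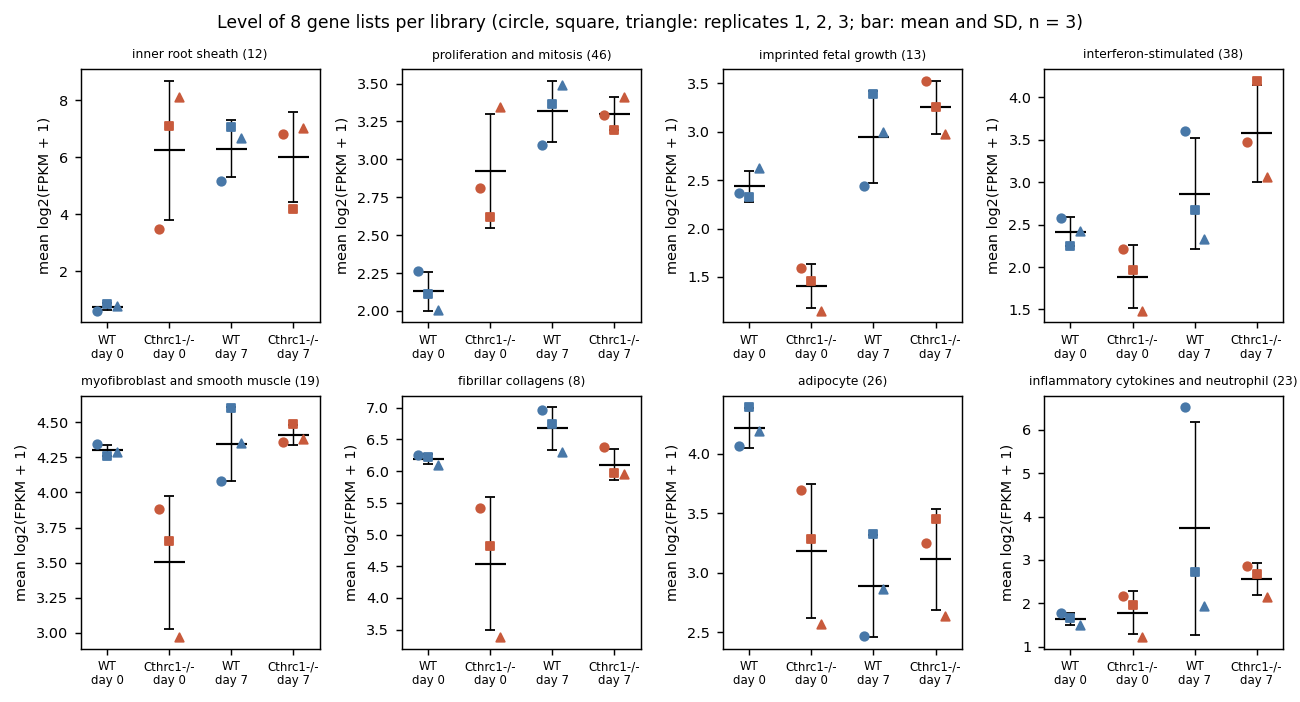
Level of 8 gene lists in each library, as the mean of log2(FPKM + 1) over the tested members, by genotype and day. Symbols are replicates 1, 2 and 3 and bars are the mean and SD of 3 libraries. WT on day 0 is the low group for the sheath and division lists, Cthrc1-/- on day 0 is the low group for the imprinted, smooth muscle and collagen lists, and WT day 7 replicate 1 stands apart in the inflammatory list.

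Vessel genes had a median change of 0.42 in WT and 1.33 in Cthrc1-/-. Of 31 endothelial and angiogenesis genes tested, 26 had a positive interaction, 7 with an unadjusted p under 0.05 against 0 in the negative direction, and the median was 1.0 (0.63 without Cthrc1-/- day 0 replicate 3). DESeq2 called 0 of them. Pecam1, an adhesion molecule of endothelial junctions, was at 18.6 to 19.6 FPKM in WT on day 0 and at 14.1, 16.8 and 6.30 FPKM in Cthrc1-/- on day 0. The day 7 libraries had 40.0, 27.1 and 17.6 FPKM in WT and 36.2, 53.1 and 28.8 FPKM in Cthrc1-/-, with an interaction of 1.07 (SE 0.606, edgeR adjusted p = 0.417). Erg, a transcription factor of endothelium, rose in Cthrc1-/- by 1.55 (edgeR adjusted p = 0.0443) and had an interaction of 1.35 (SE 0.438, edgeR adjusted p = 0.237). Cldn5, Vwf and Tek had interactions of 1.61, 1.58 and 1.72. Plvap and Pdpn, which were more abundant than Pecam1, had interactions of 0.38 (SE 0.609) and -1.14 (SE 0.968). The interaction was 1 or higher in 15 of the 31 genes and -1 or lower in 4, against 1234 and 1173 of all 14313 genes. The angiogenic factor Vegfa, at 61.0 FPKM in WT day 7 replicate 1 against 10.4 and 6.99 FPKM in replicates 2 and 3, had one of -1.27 (SE 1.08).

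Contractile genes of smooth muscle and myofibroblasts had a median change of 0.00 in WT and 0.71 in Cthrc1-/-. Of 19 tested, 9 had a positive and 1 a negative interaction at an unadjusted p under 0.05, the median was 1.10, and DESeq2 called 1. The median was 0.77 without Cthrc1-/- day 0 replicate 3, which had the lowest level of the list, 1.58 without replicate 1 of that group, and 0.70 without replicate 3 and WT day 7 replicate 1. Acta2, the smooth muscle actin of myofibroblasts and vessel walls, was at 148, 137 and 137 FPKM in WT on day 0 and at 85.2, 57.1 and 41.4 FPKM in Cthrc1-/- on day 0. On day 7 the values were 157, 172 and 137 FPKM in WT and 165, 169 and 240 FPKM in Cthrc1-/-. The knockout was below WT on day 0 without overlap and overlapped with it on day 7. Acta2 rose in Cthrc1-/- by 1.47 (edgeR adjusted p = 0.0394), its change in WT was -0.03 (adjusted p = 0.948), and the interaction was 1.5 (SE 0.385, edgeR adjusted p = 0.193). Tagln and Myl9, other proteins of the contractile filaments, had interactions of 0.95 (SE 0.292) and 1.19 (SE 0.496). The negative member was Smtn, smoothelin, at -0.54 (SE 0.206).

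Matrix genes had positive medians with few members past an unadjusted p of 0.05. The 8 fibrillar collagens had a median interaction of 1.01 with 0 members at that threshold and 0 DESeq2 calls. Col1a1, the main chain of type I collagen, was at 2410, 3120 and 2210 FPKM in WT on day 0 and at 1030, 555 and 136 FPKM in Cthrc1-/- on day 0. By day 7 WT had 2290, 1890 and 1520 FPKM and Cthrc1-/- had 1260, 884 and 1070 FPKM. WT was higher on both days without overlap, and the interaction was 1.3 (SE 0.805, edgeR adjusted p = 0.446). Col3a1 and Col1a2 had interactions of 1.10 (SE 0.879) and 1.65 (SE 0.822). Without Cthrc1-/- day 0 replicate 3 the list's median was 0.56, and without Cthrc1-/- day 0 replicate 1 it was 1.62. Of 21 other collagens, 20 had a positive interaction, 3 at an unadjusted p under 0.05, with a median of 0.81 (0.50 without Cthrc1-/- day 0 replicate 3).

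The 11 small leucine-rich proteoglycans, which coat collagen fibrils, all had positive interactions with a median of 1.2, 2 at an unadjusted p under 0.05 and 0 DESeq2 calls. Fmod, fibromodulin, fell in WT by 1.60 (edgeR adjusted p = 0.0313), its change in Cthrc1-/- was 0.00, and the interaction was 1.60 (SE 0.567, edgeR adjusted p = 0.247). Dcn, Lum and Bgn, the most abundant, had interactions of 0.76 (SE 0.693), 1.2 (SE 0.747) and 0.46 (SE 0.388). The list's median was 1.88 without Cthrc1-/- day 0 replicate 1, 0.75 without replicate 3 of that group and 0.50 when WT day 7 replicate 1 was left out as well. Cthrc1-/- day 0 replicate 3 also had the lowest dermal fibroblast level (3.61).

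Fat genes had a smaller median decrease in the knockout. Of 26 adipocyte genes tested, 25 had a positive interaction, 9 at an unadjusted p under 0.05 against 0 negative, the median was 1.21, and DESeq2 called 0. In WT 13 of the 26 changed at an adjusted p under 0.05 (13.1% of all genes) and in Cthrc1-/- 0 of 26 did (1.46% of all genes), and the median change was -1.41 in WT and -0.35 in Cthrc1-/-. Fabp4, a fatty acid-binding protein of adipocytes, was at 75.0, 88.9 and 88.3 FPKM in WT on day 0 and at 55.9, 82.8 and 63.7 FPKM in Cthrc1-/- on day 0. The day 7 libraries had 41.6, 57.9 and 36.8 FPKM in WT and 69.0, 105 and 47.6 FPKM in Cthrc1-/-. Fabp4 fell in WT by 1.07 (edgeR adjusted p = 0.0400), its change in Cthrc1-/- was -0.02 (adjusted p = 0.981), and the interaction was 1.05 (SE 0.413, edgeR adjusted p = 0.281). Cfd, the complement factor adipsin, fell in WT by 3.40 (edgeR adjusted p = 0.0262), from 309 to 437 FPKM on day 0 to 20.5 to 72.7 FPKM on day 7. In Cthrc1-/- it was already at 210, 76.6 and 25.5 FPKM on day 0, and its interaction was 2.28 (SE 1.07, edgeR adjusted p = 0.346). Thrsp, a regulator of lipid synthesis, had one of 3.37 (SE 1.27, edgeR adjusted p = 0.270). Without WT day 7 replicate 1 and Cthrc1-/- day 0 replicate 3 the list's median was 0.73.

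The list of TGF-beta and bone morphogenetic protein (BMP) genes had 5 positive and 5 negative of 35 at an unadjusted p under 0.05 and a median interaction of 0.11, and DESeq2 called 4, all higher. Id1, Id2 and Id3 encode inhibitors of basic helix-loop-helix factors and are direct BMP targets. Id2 was at 81.8, 79.9 and 73.3 FPKM in WT on day 0 and at 38.6, 36.6 and 34.8 FPKM in Cthrc1-/- on day 0. On day 7 the values were 25.2, 20.7 and 24.3 FPKM in WT and 19.2, 18.8 and 22.1 FPKM in Cthrc1-/-. WT stood above the knockout on day 0 without overlap. Id2 fell in WT by 1.92 and in Cthrc1-/- by 1.03 (edgeR adjusted p = 0.00110 and 0.0191), with an interaction of 0.89 (SE 0.194, edgeR adjusted p = 0.171). Id1 and Id3 had interactions of 1.17 (SE 0.289) and 0.91 (SE 0.252). Bmp4, a ligand, had one of 2.49 (SE 0.624, edgeR adjusted p = 0.193), with 6.03, 25.4 and 23.4 FPKM in WT on day 0 and 2.52 to 3.54 FPKM in Cthrc1-/- on day 0. The negative members included Inhba, a subunit of activin A, at -3.82 (SE 1.17), with 19.2 FPKM in WT day 7 replicate 1 and 2.04 FPKM in each of its fellow replicates.

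Inflammatory genes gave a large negative median that rested on 1 library. The 23 tested inflammatory and neutrophil genes had medians of 4.46 in WT and 0.97 in Cthrc1-/-, and a median interaction of -3.69, with 6 at an unadjusted p under 0.05 and 1 DESeq2 call. Without WT day 7 replicate 1 the median was 0.15, and with a replicate block within genotype it was -1.25. S100a8, a subunit of calprotectin made by neutrophils and injured keratinocytes, was at 1.07 to 1.87 FPKM in WT on day 0 and at 10.3 to 24.1 FPKM in Cthrc1-/- on day 0. By day 7 WT had 1210, 250 and 12.5 FPKM and Cthrc1-/- had 398, 124 and 194 FPKM. Il1b, which encodes interleukin 1 beta, was at 680 FPKM in WT day 7 replicate 1, and in the other 11 libraries at 2.50 to 21.5 FPKM. The chemokine list turned from -0.46 to 0.83 and the hypoxia and glycolysis list from -0.62 to 0.24 without the same library. Macrophage and monocyte genes had a median interaction of 0.18 (0.94 without it), with 0 of 21 at an unadjusted p under 0.05 in either direction and 0 DESeq2 calls.

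Several classes stayed near the median of all genes. Ribosomal proteins (82 tested) had a median interaction of -0.03, heat shock and chaperone genes (29) of 0.02, nuclear genes of oxidative phosphorylation (76) of -0.19 and immediate early genes (35) of 0.16. The oxidative phosphorylation values were small but mostly on 1 side. The interaction was negative in 61 of the 76, against 6936 of all 14313 genes. Their median lay between -0.31 and -0.11 in the fits without 1 library. Hspb1, a small heat shock protein, fell in WT by 1.70 and in Cthrc1-/- by 1.61 (edgeR adjusted p = 0.00592 and 0.0221), with an interaction of 0.10 (SE 0.347). Wnt genes (49) had 2 positive and 6 negative members at an unadjusted p under 0.05, 3 DESeq2 calls, all lower, and a median of 0.07, and Notch genes (26) had 3 and 2 and a median of 0.09. Hes1, a Notch target, fell in WT by 1.94 (edgeR adjusted p = 0.00500) and had an interaction of 0.98 (SE 0.366, edgeR adjusted p = 0.267). Skeletal muscle genes (29) had a median of -0.09, which was 1.38 without WT day 7 replicate 2.

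**Figure D4:**
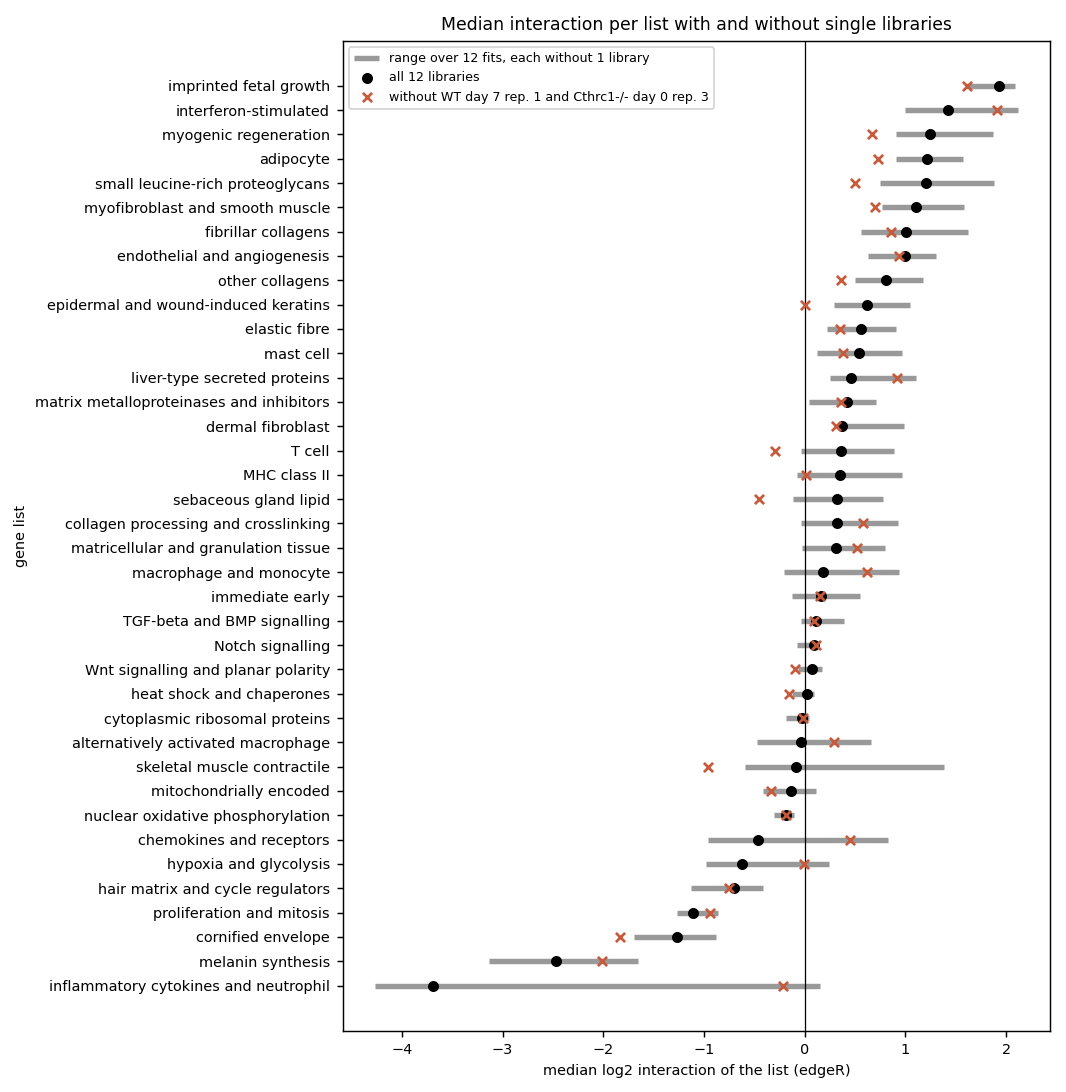
Median log2 interaction of 38 gene lists in the fit of all 12 libraries (black points), its range over 12 fits without 1 library each (grey bars) and its value without WT day 7 replicate 1 and Cthrc1-/- day 0 replicate 3 (crosses). The inner root sheath and hair shaft lists, at -10.61 and -9.20, lie off this scale and are not drawn. The inflammatory list reaches from -4.27 to 0.15, and the imprinted, interferon-stimulated, adipocyte and division lists keep their side of 0.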

How the data were processed

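RNA-seq was done on dermis of WT and Cthrc1-/- mice, 12 libraries in 4 groups assigned by title. Poly(A) RNA, per the labels' protocols, went into strand-marked dUTP libraries with unique molecular identifiers, sequenced as paired ends. The submitters' processing notes name cutadapt 1.9, HISAT2 2.0.4, UMI-tools, StringTie 1.3.4d, DESeq2, edgeR and GRCm38 without roles; the annotation release and counting strand are not given in the sources used here. The deposited table holds a whole-number count and an FPKM value per gene and sample, both computed by the authors. A count of 0 carries an FPKM of 0.0001, set to 0 here. Deposited counts pile up at multiples of 4, so for low genes 1 count is not 1 fragment, and division by 4 was an alternative. Per-sample columns left unused numbered 0.

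Symbols and positions came from GENCODE M21 (GRCm38), which named 55141 of 55401 IDs. Counts were fitted with edgeR 4.0.16 in R 4.3.3 (glmQLFit and glmQLFTest, two-sided, TMM scaling, 1 mean per group over all 12 samples), with Benjamini-Hochberg adjustment over 14313 genes. "Adjusted p" refers to this test. The SE is the absolute log2 value divided by the square root of F. The procedure was tested on simulated data in which all groups shared 1 spread per gene, so unequal spread between groups was not covered. Alternatives were DESeq2 1.42.0, limma 3.58.1 on log2(FPKM + 1) and log2(FPKM + 0.1), RLE and total-count scaling, other FPKM filters, a replicate block, and leaving out libraries. A floor of 3 counts per library stood for groups at 0, and covers counting error only.

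Named genes were the genes called, among named protein-coding genes of at least 5 FPKM the 8 smallest p in each direction and, at an unadjusted p under 0.05, the 8 largest interactions in each direction on log2(FPKM + 1), the 3 most abundant members of each list, and Cthrc1. The genes examined and the lists were chosen with earlier results of these data known, so no list was tested. The labels call the replicates biological without naming animals. Some genes the rule picks are not reported here.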

Additional observations from a re-analysis of the deposited data

Results flagged for a closer look

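The change between days differed between the genotypes past correction in 2 genes. The interaction was 4.48 for Apbb2, higher in 3 of 3 knockout libraries on day 7 and lower in 3 of 3 on day 0. It was -1.46 for Pds5a, which was high in 3 of 3 knockout libraries on day 0. Each was tested by the interaction term of the edgeR fit, with adjusted p of 0.0150 and 0.0407.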

How the results depend on the processing

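edgeR called 2 genes as reported and also with RLE scaling and with counts divided by 4. The number was 681 with DESeq2, 4 with limma on log2(FPKM + 1), 1 with limma on log2(FPKM + 0.1), 1 without an FPKM filter, 1 with total-count scaling, 0 at a mean of at least 5 FPKM (1195 of 7813 genes at an unadjusted p under 0.05, Apbb2 and Pds5a not being tested) and 9 without WT day 7 replicate 1 and Cthrc1-/- day 0 replicate 3. Leaving out 1 library gave 0 to 242. Of DESeq2's 681 genes, 181 were among the 242 called without Cthrc1-/- day 0 replicate 1. The share of genes with a stronger change was 11% when genes were taken by a 2-fold interaction in place of p. With replicate number as a block across all groups 1 gene was called, and with a replicate block within genotype 0 were called (2405 at an unadjusted p under 0.05), Apbb2 then having an adjusted p of 0.160. The labels do not tie the numbers to a shared animal or day, so the blocked fits are not read as a paired analysis. Correlations of deviations ran from -0.232 to 0.426 between same-numbered libraries and from -0.453 to 0.52 between others. Same-numbered values lay above the others between WT day 0 and WT day 7 (0.023 to 0.087 against -0.083 to 0.016). They also did between Cthrc1-/- day 0 and WT day 7 (0.124 to 0.222 against -0.204 to 0.114). In the remaining pairs of groups the ranges overlapped. A pairing is therefore not settled by these values. For the 144 named genes, 3228 of 3308 values kept their side of the threshold, 60 newly passed it and 20 fell short of it. Among all 3308, 172 had the other sign, none of them for a called gene. Fold values on the log2(FPKM + 1) scale are smaller for low genes, with list medians of -6.38 for the inner root sheath, -5.26 for the hair shaft, -1.54 for melanin synthesis and 1.25 for imprinted genes. The cause of these differences was not tested.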
